A study of Saccharomyces cerevisiae with 4 samples.

Results

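The cytosolic chaperonin CCT, also called TRiC, is a cage of 2 stacked rings in which newly made proteins fold, and each ring is built from 8 different subunits. In Saccharomyces cerevisiae the subunits are encoded by TCP1 and CCT2 to CCT8, all of them essential genes. Actin and tubulin cannot reach their folded state without it, and it works with prefoldin, which hands over unfolded chains, and with phosducin-like cofactors. The subunits are related in sequence but not alike in their use of ATP, with CCT2, CCT4 and CCT5 on the side of the ring that binds it readily and CCT3, CCT6 and CCT8 on the other side. The RNA of the 8 genes was described as a set and gene by gene.

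The genes were taken from the probe names of the array, and all 8 were found among the 6336 genes measured. Each probe named 1 gene, and each systematic name carried the same symbol in the RefSeq annotation of yeast, where the 8 genes span 1584 bases (CCT2) to 1707 bases (CCT8). Each gene was read by 2 spots of a 50-mer oligonucleotide on each array.

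The arrays compared the strains AT22, TAT12 and TTY23 with S288C, the haploid laboratory strain from which they descend, and with each other. AT22 was evolved from S288C in acid medium with acetic acid, TTY23 from S288C at raised temperature, and TAT12 from TTY23 in acid medium with acetic acid, each being a strain isolated from its evolution experiment. For the arrays, every strain was grown without a stress, in defined medium with 2% glucose at 30 °C, pH 5.0 and 250 rpm by the sample labels, and total RNA was taken in mid-exponential phase. The 4 comparisons were AT22 over S288C, TAT12 over S288C, TAT12 over TTY23 and TAT12 over AT22, and each was hybridised as a dye swap of 2 arrays. Both arrays of a swap counted as 1 replicate, so every value below has n = 1, the spread between its 2 arrays is technical, and nothing measures the spread between cultures. RNA came from whole cultures, in which fewer cells with a transcript and less of it per cell cannot be told apart. TTY23 over S288C was obtained indirectly, as TAT12 over S288C minus TAT12 over TTY23, and shares its arrays with those comparisons.

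Across the arrays, 42.6 to 69.6% of genes were above background in both dyes, where above background means that the mean net intensity of the gene exceeded 95% of the 320 empty spots in that channel. Duplicate spots correlated with r from 0.79 to 0.94 across genes, whereas both arrays of a swap, turned to the same direction, correlated with r from −0.17 to 0.13. One array, the second of the AT22-S288C swap, could not be given a settled direction. Across genes, the AT22 over S288C ratios of this array and the TAT12 over S288C ratios of its counterpart had r = −0.59, below the limit of −0.3 for arrays that share a strain, while the first arrays of both swaps gave 0.18. Ratios of AT22 over S288C are therefore also given with the sign of that array turned.

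Signal set the first limit on what could be read. CCT2 and CCT8 were above background in all 16 channels (8 arrays in 2 dyes), as were 34.2% of all genes. TCP1 was above background in 0 of 16 channels, with a net intensity of 0.286 to 0.987 times the limit. CCT3 passed the limit on 1 array in Alexa555 and on 1 array in Alexa647. The other genes were split by dye. CCT4 was above background on 6 arrays in Alexa555 and 3 in Alexa647, CCT5 on 8 and 5, CCT6 on 5 and 7, and CCT7 on 7 and 1. Ratios of TCP1 and CCT3 in particular were thus taken between signals near those of empty spots. For a gene below background in both strains the log2 ratio is printed as a description only, and is not restated as a fold.

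**Figure D1:**
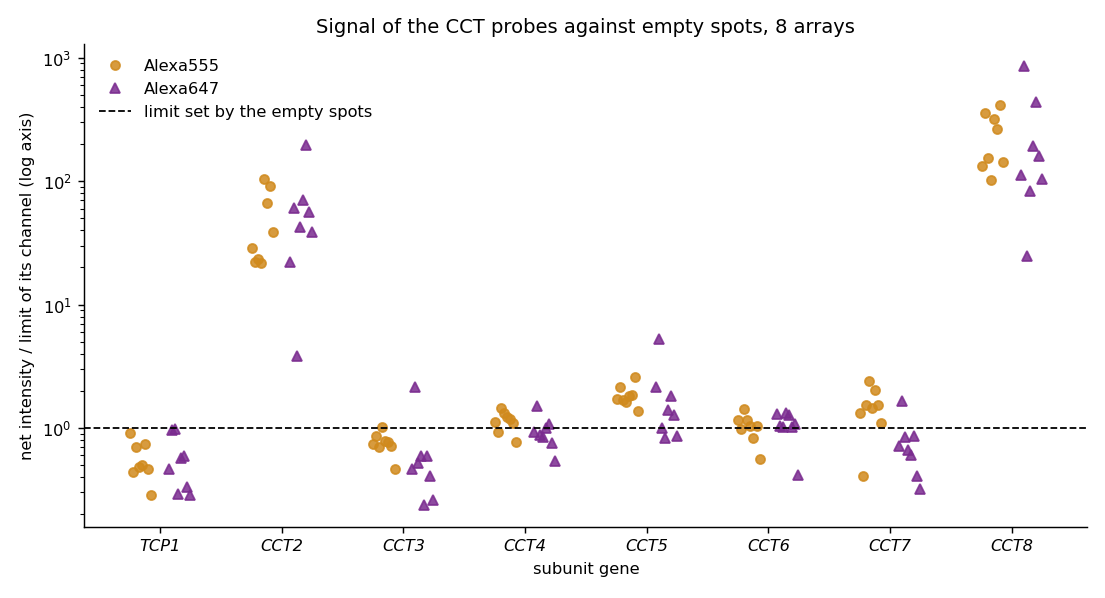
Net intensity of each CCT probe divided by the limit of the empty spots in its channel (log axis), for Alexa555 (circles) and Alexa647 (triangles) on the 8 arrays. CCT2 and CCT8 lie above the limit in all channels, TCP1 lies below it in all, and the probes are not to be compared with each other in level.

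Between strains, the log2 ratio of each gene was set against the 100 genes nearest in mean intensity, and a z-score past 2 in size counted as a change, which is the study's own threshold. None did so in AT22 over S288C (0 of 8, also with the second array turned), against 4.62% of all genes as labelled and 4.02% with the array turned. The count was again 0 of 8 in TAT12 over S288C, against 5.05% of all genes. In TAT12 over TTY23, 1 gene (CCT3) passed −2, against 2.43% of all genes below −2 and 5.51% past the threshold in either direction. In TAT12 over AT22, 1 gene (CCT6) passed 2, against 3.38% of all genes above 2 and 4.28% in either direction. In the indirect TTY23 over S288C, 2 genes (CCT3 and CCT7) passed 2, against 3% of all genes above 2 and 5.16% in either direction. None of the counts in a comparison measured directly exceeded 1 of 8.

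As a set, the 8 genes had no common direction that held across the comparisons. Their median log2 ratio was −0.22 in AT22 over S288C (0.025 over all genes), with 2 of 8 above 0 against 54.2% of all genes. With the second array turned, the median was −0.019 and 4 of 8 were above 0, against 50.6% of all genes. The first array alone gave −0.26, with 2 of 8 above 0. The median was 0.048 in TAT12 over S288C (0.020 over all genes), with 5 of 8 above 0 against 53.1%. In TAT12 over TTY23 it was −0.059 (0.0080 over all genes), with 2 of 8 above 0 against 52.2%, and in TAT12 over AT22 it was −0.036 (−0.010 over all genes), with 3 of 8 above 0 against 46.2%. The indirect TTY23 over S288C had the highest median, 0.16 (0.018 over all genes), with 6 of 8 above 0 against 53.1%. In that estimate the median was 0.12 on the first arrays and 0.058 on the second.

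The sign of each ratio was also compared between both arrays of its swap. Both arrays had the same sign for 6 of the 8 genes in AT22 over S288C, against 52.9% of all genes. With the second array turned it was 2 of 8 (CCT4 and CCT5), against 47.1%. In TAT12 over S288C and in TAT12 over TTY23 it was 2 of 8, against 50.2% and 50% of all genes. The indirect TTY23 over S288C had 5 of 8, against 55.9%. In TAT12 over AT22 it was 0 of 8, against 42.1%, so no subunit had a direction there that did not depend on the array.

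**Figure D2:**
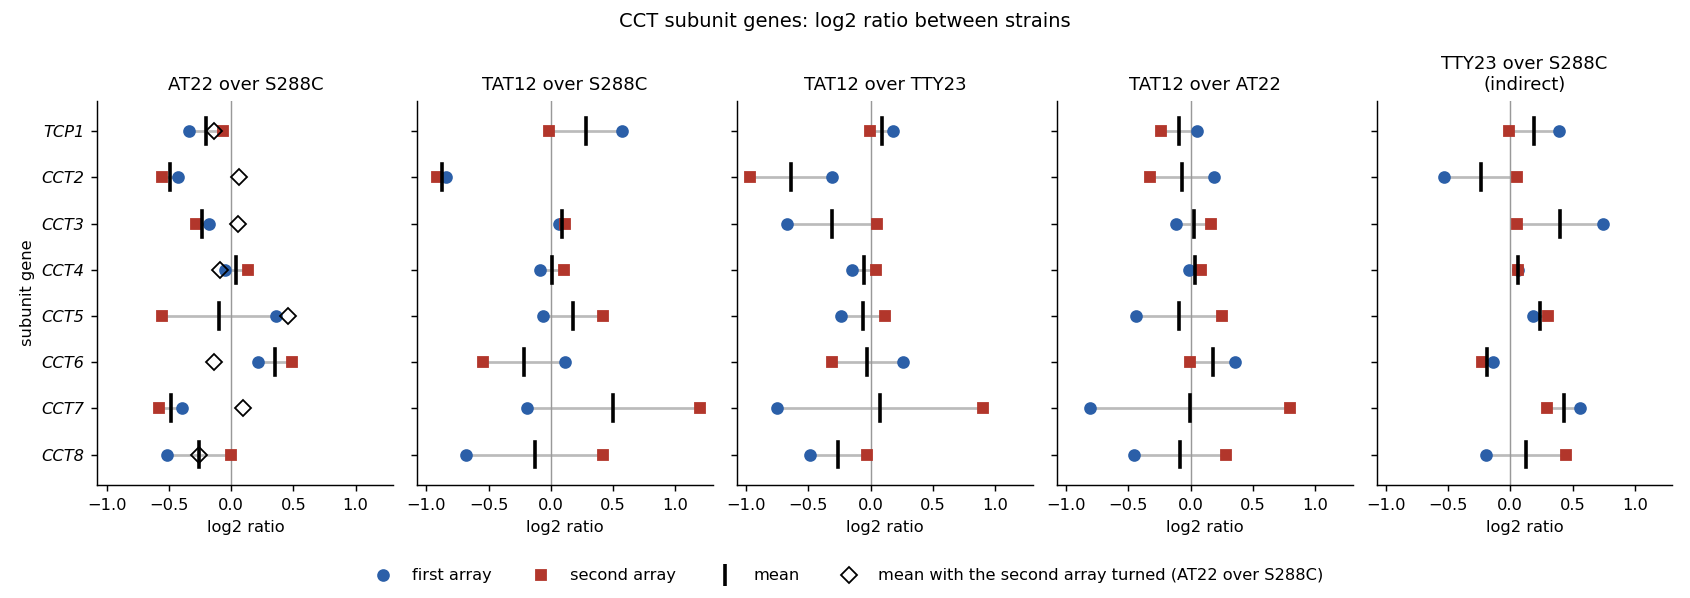
Log2 ratio of the 8 CCT genes in each comparison (horizontal axis), with the first array of the swap as a circle, the second as a square and their mean as a bar; diamonds give the AT22 mean with the second array turned. CCT2 lies left of 0 on both arrays of 3 comparisons, among them AT22 over S288C only in the labelled direction. The arrays of CCT7 fall on opposite sides of 0 in the 3 comparisons that hold TAT12.

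CCT2, the beta subunit, had the lowest ratio of the 8 in TAT12 over S288C, in TAT12 over TTY23 and, with CCT7 close to it, in AT22 over S288C as labelled. With the second array turned, the lowest in AT22 over S288C was instead CCT8, with −0.26. The signal of CCT2 was 3.86 to 197 times the limit of the empty spots. On the first array of TAT12 and S288C its net intensity was 276 in TAT12 and 1107 in S288C, and on the second it was 2275 in TAT12 and 4502 in S288C. After normalization the log2 ratio of TAT12 over S288C was −0.84 and −0.91 on these arrays, and each of the 4 spots lay between −0.80 and −0.94. The mean was −0.88, or 1.84-fold more RNA in S288C. Even so the z-score was −1.42, because the 100 genes nearest in intensity had an SD of 0.60 in this comparison.

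Against TTY23, CCT2 had a net intensity of 5478 in TAT12 and 7539 in TTY23 on the first array, and of 5865 in TAT12 and 11635 in TTY23 on the second. The log2 ratios were −0.31 and −0.97, with a mean of −0.64 (z-score −1.75, SD of the nearest genes 0.33). All 4 spots were below 0, and the arrays differed by 0.65 on the log2 scale. The indirect TTY23 over S288C came to −0.24 (z-score −0.170), with −0.53 on the first arrays and 0.054 on the second, which have opposite signs.

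In AT22, CCT2 had net intensities of 1119.5 against 1967.5 in S288C on the first array, and of 1723 against 2353 in S288C on the second. The log2 ratios were −0.43 and −0.55, with a mean of −0.49 (z-score −1.97), just inside the threshold, and the first spots alone gave −0.63 (z-score −2.32). Turning the second array gave 0.061 (z-score 0.334). Between the strains evolved in acid the difference was small, with 4702 in TAT12 and 4598 in AT22 on the first array, 3413 in TAT12 and 3600.0 in AT22 on the second, log2 ratios of 0.19 and −0.33, and a mean of −0.068 (z-score −0.253).

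A limma fit over the 4 dye-swap means had 3 coefficients and 1 residual degree of freedom. That residual comes from TAT12 over S288C set against TAT12 over AT22 plus AT22 over S288C. No array with TTY23 enters it, and its SEs and p-values do not measure the spread between cultures. At an adjusted p under 0.05 the limma fit called 0 of the 8 genes and 0% of all genes in AT22, TAT12 or TTY23 relative to S288C. With the arrays as labelled, CCT2 was the one subunit with an unadjusted p under 0.05. Its limma estimate was −0.77 in TAT12 over S288C (SE 0.17, unadjusted p = 0.0053, adjusted p = 1.00) and −0.60 in AT22 over S288C (SE 0.17, unadjusted p = 0.0158, adjusted p = 0.999). At that unadjusted level stood 3.99% of all genes in TAT12, 1.44% in AT22 and 0.426% in TTY23, where the lowest limma p of a subunit was 0.313 (adjusted p = 1.00). When limma was fitted to all 8 arrays with the dye as a term, CCT2 had an adjusted p = 0.388 in TAT12 and 0.714 in AT22. That fit took both arrays of a swap as separate observations (4 residual degrees of freedom). Its p-values therefore rest partly on the technical spread between them and are no test on replicate cultures. With the second AT22-S288C array turned, limma again called 0 of 8, and other subunits came under the unadjusted level. The limma estimate of CCT2 was then −0.23 in AT22 over S288C (unadjusted p = 0.289, adjusted p = 0.579) and −0.59 in TAT12 over S288C (unadjusted p = 0.0235, adjusted p = 0.313). CCT5 had 0.39 in AT22 over S288C by the same limma fit (unadjusted p = 0.0137, adjusted p = 0.147), and CCT7 had 0.36 in TAT12 over S288C (unadjusted p = 0.0348, adjusted p = 0.341). In that fit 19.4% of all genes stood under the unadjusted level in AT22 and 13.1% in TAT12.

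The other subunits of that side of the ring, CCT4 (delta) and CCT5 (epsilon), had mean log2 ratios of small size in the labelled directions. CCT4 had mean log2 ratios of 0.042 in AT22 over S288C (−0.090 turned), 0.0077 in TAT12 over S288C, −0.054 in TAT12 over TTY23 and 0.037 in TAT12 over AT22. Its single arrays lay between −0.15 and 0.13, the narrowest range of the 8 genes, with net intensities around the limit of the empty spots. CCT5 had −0.098 in AT22 over S288C, where the arrays gave 0.36 and −0.55 and turning the second gave 0.46 (z-score 1.57). In the comparisons of TAT12, CCT5 had 0.18 over S288C, −0.064 over TTY23 and −0.095 over AT22, each with opposite signs on its 2 arrays.

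On the other side, CCT3 (gamma) held the one call of TAT12 over TTY23. Its mean log2 ratio there was −0.31 (z-score −3.26), with −0.68 on the first array and 0.052 on the second (z-score 0.0545 on that array alone). Net intensities were 18.6 in TAT12 and 57.5 in TTY23 on the first array, and 67.7 in TAT12 and 34.8 in TTY23 on the second, all of them below background. The nearest genes in intensity had an SD of 0.10, so that a smaller ratio than that of CCT2 in TAT12 over S288C passed the same threshold. Without background correction the ratio was −0.059 (z-score −0.880). CCT3 was also past the threshold in the indirect TTY23 over S288C, with 0.40 (z-score 2.16), where the arrays of TAT12 and TTY23 are used again. There it gave 0.74 on the first arrays and 0.058 on the second (z-score 0.102 on the second alone). Over S288C its ratio was −0.23 in AT22 (0.052 turned) and 0.089 in TAT12.

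CCT6 (zeta) held the one call of TAT12 over AT22, with a mean log2 ratio of 0.18 (z-score 2.05). Net intensities were 89.0 in TAT12 and 51.8 in AT22 on the first array, and 49.0 in TAT12 and 38.6 in AT22 on the second. Only the first array carried a difference, with 0.36 (z-score 1.73 on that array alone) against −0.0024 on the second (z-score −0.0719 on that array alone), and both channels of the second were below background. CCT6 was the highest of the 8 in AT22 over S288C, with 0.21 and 0.49 on the arrays and a mean of 0.35 (z-score 1.47), but −0.14 with the second array turned. In TAT12 it had −0.21 over S288C and −0.029 over TTY23, both with opposite signs on the 2 arrays.

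CCT8 (theta) had a strong signal, yet its duplicate spots disagreed. The second spot was 1.91 to 13.1 times as bright as the first across the 16 channels. The spots gave log2 ratios of TAT12 over S288C of −1.07 and −0.29 on the first array, and 0.66 and 0.18 on the second. The mean was −0.13 (z-score −0.194). In TAT12 over TTY23 the arrays gave −0.49 and −0.028, and in AT22 over S288C −0.52 and −0.0033. The means were −0.26 in both (z-scores −0.793 and −0.867), a value that turning the second array left at −0.26 in AT22. In TAT12 over AT22 it was −0.083, with opposite signs on the arrays.

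TCP1 (alpha) and CCT7 (eta) complete the ring. TCP1, below background throughout, had a ratio of 0.28 in TAT12 over S288C, from 0.57 and −0.014 on the arrays. In AT22 over S288C its ratio was −0.20 (−0.13 turned). It was at 0.088 in TAT12 over TTY23 and −0.092 in TAT12 over AT22.

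CCT7 had the widest gaps between arrays. In TAT12 over S288C its log2 ratio was −0.20 on the first array and 1.19 on the second, in TAT12 over TTY23 −0.76 and 0.90, and in TAT12 over AT22 −0.81 and 0.80. The means were 0.50 (z-score 1.88), 0.072 (z-score 0.542) and −0.0031 (z-score −0.177). The difference between the turned arrays divided by 2, in which the strains cancel and the dyes remain, had z-scores of −2.31, −2.78 and −4.16 in these comparisons, whereas 4.91, 4.59 and 4.64% of all genes passed 2 in size. In AT22 over S288C, CCT7 had −0.39 and −0.58, with a mean of −0.48 (z-score −1.76) and 0.093 with the second array turned. As labelled, AT22 was below background on both arrays and S288C above it on both, which gave at least 1.10-fold less RNA in AT22 (the mean of S288C against the lowest signal above background in the AT22 channels). CCT4 had the same background pattern in AT22 over S288C. Its normalized AT22 signal was not under that lowest signal, so the calculation returned only its mean ratio and gave no bound. That was 0.972-fold for S288C over AT22, a mean log2 ratio of 0.042 for AT22 over S288C. The pattern alone therefore does not show less RNA in AT22. CCT7 passed 2 in the indirect TTY23 over S288C with 0.43 (z-score 2.05), from 0.56 on the first arrays and 0.29 on the second (z-score 1.17 on the second alone), and the first spots alone gave 0.038 against 0.82 from the second spots.

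Read by dye instead of by strain, CCT7 was higher in Alexa555 on 7 of the 8 arrays. Its mean log2 ratio of Alexa647 over Alexa555 was −0.56, which stood at percentile 0.631 of all genes. The exception was the second AT22-S288C array, with 0.58. CCT6 also had its 1 exception on that array, with −0.49 there and a mean of 0.16 (percentile 91.0), Alexa647 being higher on the other 7. CCT8 was higher in Alexa555 on 6 of 8 arrays, with a mean of −0.35 (percentile 2.45). CCT4 was higher in Alexa555 on 8 of 8 arrays, by at most 0.15, and 2.18% of all genes kept the same dye higher on all 8. CCT2 changed sign with the dyes in TAT12 over S288C, in TAT12 over TTY23 and, with the arrays as labelled, in AT22 over S288C.

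**Figure D3:**
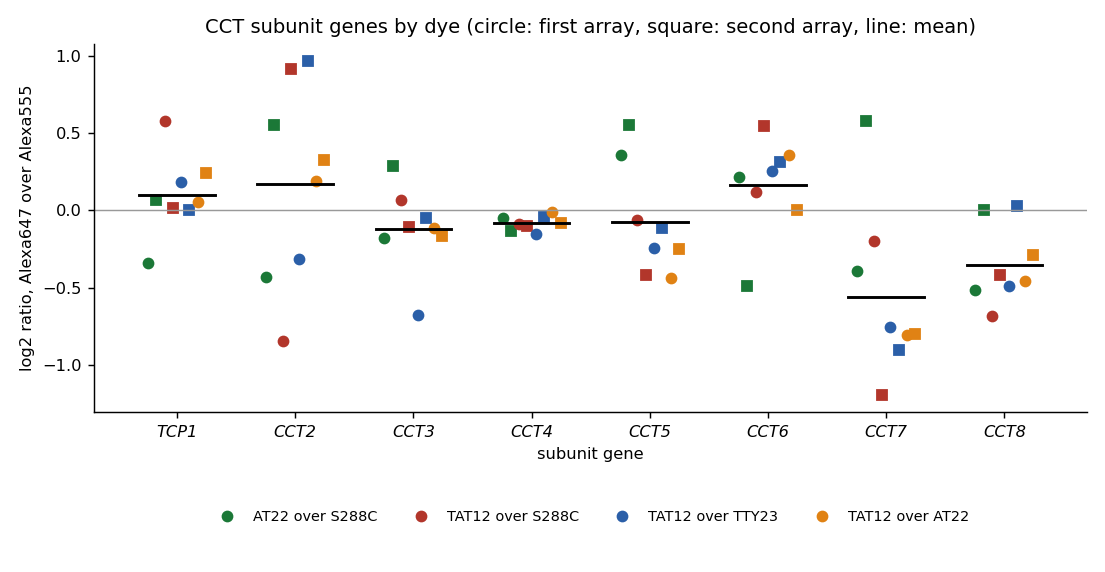
Log2 ratio of Alexa647 over Alexa555 (vertical axis) for each CCT gene on the 8 arrays, coloured by comparison, with the mean over the arrays as a line. CCT7 lies below 0 on 7 arrays and above it on the second AT22-S288C array, while the first and second arrays of CCT2 lie on opposite sides of 0 in 3 comparisons.

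S288C, AT22 and TAT12 form a closed loop, so TAT12 over S288C could also be read as TAT12 over AT22 plus AT22 over S288C. For CCT2 the direct ratio was −0.88 and that through AT22 was −0.56. With the second AT22-S288C array turned, the ratio of CCT2 through AT22 was −0.0070. CCT7 gave 0.50 directly and −0.49 through AT22 (0.090 turned), CCT6 −0.21 and 0.53 (0.041 turned), and TCP1 0.28 and −0.30 (−0.23 turned). Both routes had the same sign in 3 of the 8 genes, and in 5 of 8 with the array turned. The SD of the difference between the routes was 0.54 over the 8 genes and 0.49 over all genes, and 0.44 and 0.32 with the array turned.

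**Figure D4:**
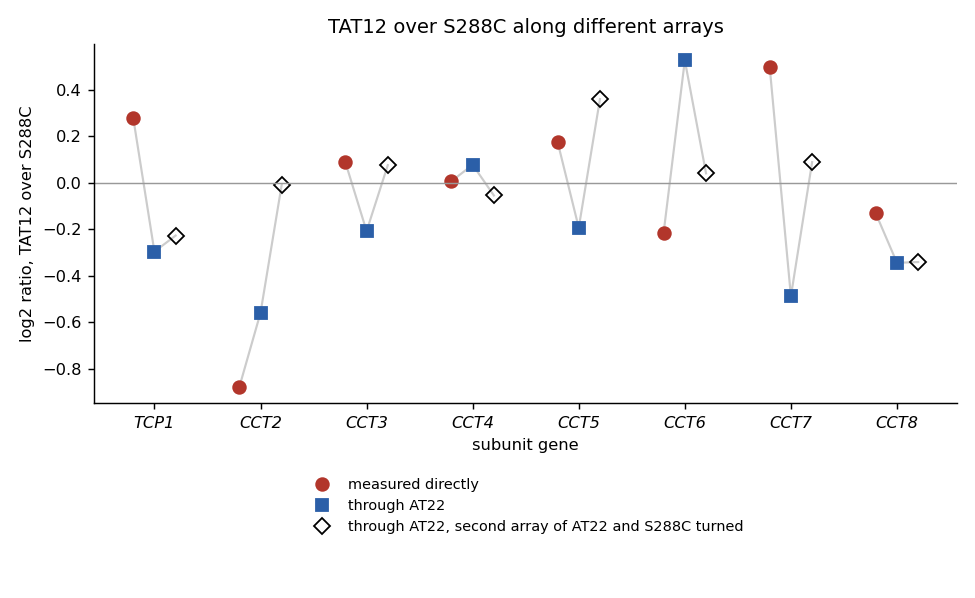
Log2 ratio of TAT12 over S288C for each CCT gene (vertical axis), measured directly (circles), through AT22 (squares) and through AT22 with the second AT22-S288C array turned (diamonds). CCT2, CCT4 and CCT8 have the same sign directly and through AT22, and the other 5 genes do not.

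The 8 genes also did not vary together from array to array. Of the 28 pairs, 12 correlated positively and 16 negatively over the 8 arrays, with a median r of −0.22 and a range from −0.92 (CCT6 and CCT7) to 0.84 (CCT4 and CCT8). With the second AT22-S288C array turned, 13 pairs were positive and 15 negative, with a median r of −0.040 and a range from −0.89 (CCT6 and CCT7) to 0.89 (CCT7 and CCT8). As labelled, CCT7 and CCT8 gave 0.78, and CCT2 and CCT7 −0.63. These values describe 8 arrays that share strains and in which all first arrays carry the first-named strain in Alexa647, so a dye difference enters each of them. The 5 genes whose 8 array ratios were most like the mean of the subunits, among the 2011 other genes that were above background in all channels and had a probe naming 1 gene, were SPO7 (r = 0.94), RHR2 (0.94), LRO1 (0.93), INP51 (0.93) and MSS11 (0.92), over the same 8 arrays. With the array turned, 2 of these, RHR2 and SPO7, were among the 5 most alike (r = 0.955 and 0.954), and GAL2, POB3 and YOR050C took the other places.

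The open reading frames that overlap or adjoin subunit genes on the chromosome had probes of their own. YDR187C, which overlaps CCT6, had log2 ratios of 0.41 in AT22 over S288C (z-score 1.48, and 0.016 with the second array turned) and 0.42 in TAT12 over AT22 (z-score 1.37). YJL009W, which overlaps CCT8, lay between −0.17 and 0.036, and YJL015C, beside CCT3, between −0.40 and 0.15, with 0 of these past the threshold in any comparison. In AT22 over S288C the turned array gave −0.052 for YJL009W and −0.088 for YJL015C, where the labelled directions gave 0.036 and −0.40. Whether transcripts of one entered the signal of the other was not tested.

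Among the partners of the ring, prefoldin came first, the complex of 6 subunits that delivers unfolded actin and tubulin. Of its genes (PFD1, YKE2, PAC10, GIM3, GIM4 and GIM5), 0 of 6 passed the threshold in each comparison measured directly. The lowest ratios were those of YKE2 in TAT12 over S288C, −0.77 (z-score −1.68), and PAC10 in AT22 over S288C, −0.58 (z-score −1.86). PAC10 was at 0.24 (z-score 0.724) in AT22 over S288C with the second AT22-S288C array turned. In the indirect TTY23 over S288C, PFD1 passed 2 with 0.42 (z-score 2.35), and the median of the 6 was −0.055. The prefoldin medians elsewhere were 0.16 in AT22 over S288C (0.035 turned), −0.12 in TAT12 over S288C, −0.060 in TAT12 over TTY23 and 0.0022 in TAT12 over AT22.

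PLP2, a phosducin-like cofactor that binds the chaperonin, did not pass the threshold in any comparison. Its lowest ratio was −0.48 in TAT12 over S288C (z-score −1.19), and its highest was 0.31 in AT22 over S288C (z-score 0.893), or −0.43 with the second array turned. Among the tubulin cofactors, which take over tubulin released from the ring or act in its assembly (CIN1, CIN2, CIN4, PAC2, ALF1 and RBL2), 0 of 6 passed in any comparison. The median of this group was 0.20 in the indirect TTY23 over S288C, and its lowest single value was −0.40 for CIN1 in TAT12 over TTY23 (z-score −1.64).

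The substrates listed were actin (ACT1), alpha tubulin (TUB1 and TUB3), beta tubulin (TUB2) and the activators of the anaphase-promoting complex CDC20 and CDH1. TUB1 was the one gene of the related lists past the threshold in a comparison measured directly. In AT22 over S288C its log2 ratio was −0.48 on the first array and −0.95 on the second, with a mean of −0.71 (z-score −3.76) and all channels above background. With the second array turned it was 0.23 (z-score 1.10), so the call rests on the direction of that array. TUB1 was at 0.28 in TAT12 over S288C, at 0.066 in TAT12 over TTY23 and at −0.010 in TAT12 over AT22. Each of these means came from arrays of opposite sign (−0.26 and 0.81, −0.27 and 0.41, −0.45 and 0.43). S288C was above background on 1 array of the TAT12-S288C swap, and TAT12 and AT22 each on 1 array of theirs.

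ACT1 passed 2 in the indirect TTY23 over S288C, with 0.52 (z-score 2.11). In TAT12 over S288C the arrays gave 0.88 and 0.25, with a mean of 0.56 (z-score 1.29). A second probe for ACT1 gave 0.086 (z-score 0.185) in TTY23 and 0.037 (z-score 0.121) in TAT12 over S288C. The 6 substrates had medians of 0.14 in AT22 over S288C (0.21 turned), 0.047 in TAT12 over S288C, −0.011 in TAT12 over TTY23 and −0.13 in TAT12 over AT22, where 0 of 6 were above 0 and 0 passed the threshold.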

How the data were processed

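RNA of S288C, TTY23, AT22 and TAT12 was compared on 2-colour arrays, and the labels gave the strain in each dye. For every spot the authors deposited the intensity and its local background, as scanned. They also deposited a score per gene and comparison, which is a z-score of log ratios from the genArise package (version and normalization steps not given in the sources used here). These scores ran in the same direction as the ratios computed here (r from 0.77 to 0.85 across genes). Their medians were 0.11 for AT22 over S288C, 0.0052 for TAT12 over S288C, −0.029 for TAT12 over TTY23 and −0.10 for TAT12 over AT22. They served as an alternative.

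Background was corrected by limma 3.58.1 (R 4.3.3, normexp, offset 50), which also normalized log2 ratios within arrays by loess, with empty and control spots given no weight. Duplicate spots were averaged, and so were both arrays of a swap after 1 was turned. The z-score used the 100 nearest genes, 50 on each side. Limma p-values were adjusted over all 6336 genes by the Benjamini-Hochberg method. The z-score and the limma fit were tested on simulated data, and the other steps were not. Python 3.11.15 with numpy 2.4.6, pandas 2.3.3 and matplotlib 3.10.9 did the rest.

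The genes named were the 8 subunits, the genes of 4 related lists that passed the threshold or were the most or least changed of their list, and the 5 genes most like the mean of the subunits. The members, lists and alternatives were chosen with earlier results of these data known. A gene of the related lists is not reported here. Where the ACT1 symbol had several probes, the one with the plain systematic name was used. No coordinates are printed, since no build is named in the files. The number of arrays limits the precision.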

Additional observations from a re-analysis of the deposited data

Results flagged for a closer look

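CCT3 was below S288C on both arrays of AT22 over S288C, with a mean log2 ratio of −0.23, and above it on both arrays of TAT12 over S288C, with 0.09. The difference between the strains was −0.32 (AT22 minus TAT12) and was not tested. Such opposite pairs were found for 981 of the 6336 genes (15.5%) and for 1 of the 8 subunits. In AT22 over S288C, CCT3 was above background on 0 arrays in AT22 and 1 in S288C, and in TAT12 over S288C on 1 array in TAT12 and 0 in S288C. Its ratio in AT22 was 0.052 once the second AT22-S288C array was turned.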

How the results depend on the processing

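Of 334 values of single subunits under the alternatives, 295 moved by less than the spread between arrays, 36 moved by more and 3 turned their sign after a call. CCT3 in TAT12 over TTY23 was 0.052 on the second array alone, and CCT6 in TAT12 over AT22 was −0.0024 on the second array alone and −0.070 by least squares over the loop. The spread between arrays was taken as their SD, and a single array always lies nearer than that to their mean. Single-array values could therefore not count as moved by more, even for CCT7 in TAT12 over AT22, with −0.81 and 0.80. Turning the second AT22-S288C array also left the ratios of the other comparisons as they were. The 295 is thus no measure of stability. The limma fit called 0 of 8 subunits in each alternative fit. No paired analysis was possible because each comparison has 1 replicate.

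The counts past the z-score threshold moved as follows. In AT22 over S288C the count of 0 was 1 by least squares, 1 by first spots alone, 1 by the authors' z-scores and 3 at a threshold of 1, and the gene was CCT2 by least squares (−0.60) and by first spots (−0.63) and CCT7 by the authors' z-scores (−2.17). In TAT12 over S288C the count of 0 was 1 under several alternatives, with different genes. On the first array alone it was TCP1 (z-score 2.03), which was below background throughout. By least squares (z-score −2.17) and at a fold change of at least 1.5 it was CCT2, which was lower in TAT12. CCT7 passed without background correction (z-score 2.75), on the second array alone (3.19), by second spots alone (3.10) and by the authors' z-scores (3.05). The count was also 1 against 400 nearest genes, and 4 at a threshold of 1. In TAT12 over TTY23 the count of 1 was 0 without background correction and 0 among the 4 subunits above background on all arrays, and 2 on either array alone and at a threshold of 1. On the first array alone the genes were CCT3 (z-score −3.13) and CCT7 (z-score −2.92). On the second alone they were CCT2 (z-score −2.20) and CCT7, now with the opposite sign (z-score 3.34). At a fold change of at least 1.5 the count stayed at 1, but the gene was CCT2 (1.56-fold lower in TAT12) and not CCT3. In TAT12 over AT22 the count of 1 was 0 among the 2 subunits above background, by first or second spots alone, at a fold change of 1.5 and by the authors' z-scores (values for 7 subunits, none for CCT7, as in TAT12 over TTY23), and 2 at a threshold of 1. Where the count stayed at 1 on a single array, the gene was CCT7 and not CCT6 (z-score −3.14 on the first, 4.29 on the second). By least squares the count also stayed at 1, and the gene was again CCT7 (z-score 2.21), with CCT6 at a z-score of −0.822. In TTY23 over S288C the count of 2 was 0 without background correction, among the 2 subunits above background, on the second arrays alone and at a fold change of 1.5, 1 by least squares, by first or second spots alone and against 400 nearest genes, and 4 at a threshold of 1.

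The medians moved in 10 of 45 cases. In AT22 over S288C (−0.22) the median was −0.072 by least squares, −0.019 with the second array turned and −0.12 by second spots. In TAT12 over S288C (0.048) it was −0.21 among subunits above background, in TAT12 over TTY23 (−0.059) −0.28 on the first array, and in TAT12 over AT22 (−0.036) 0.12 on the second. In TTY23 over S288C (0.16) it was −0.055 among subunits above background, 0.058 on the second arrays, 0.073 by least squares and 0.097 by first spots. The cause of these shifts was not tested. Signal limits most probes, since 2 of 8 were above background in all channels.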
